A study of Homo sapiens with 6 samples.

Results

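The unfolded protein response restores folding capacity in the endoplasmic reticulum (ER) when unfolded proteins accumulate there. The sensors in the ER membrane activate transcription factors that raise the production of chaperones and of enzymes that form disulfide bonds, while a separate arm slows translation and favors the factors ATF4 and CHOP. The mRNAs for the resident chaperones are translated on ribosomes at the ER membrane and are abundant in secretory cells. Here, 8 genes of this response were followed in eCLIP data for Angel1, a homolog of the CCR4 deadenylases. They comprise the Hsp70 chaperone BiP (HSPA5), the Hsp90 chaperone GRP94 (HSP90B1), the lectin chaperone calnexin (CANX), the disulfide isomerases PDIA3, PDIA4 and PDIA6, and the transcription factors ATF4 and CHOP (DDIT3).

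The members were set by gene and not by a cut on their signal, as all clusters of eCLIP reads on the strand of the gene with 1 nt or more inside its span. The genes were chosen with earlier results of these data known. In GRCh37 these spans were chr9:127997132-128003666 (minus strand) for HSPA5, chr12:104324189-104341708 (plus) for HSP90B1, chr5:179125930-179158642 (plus) for CANX and chr15:44038590-44064804 (plus) for PDIA3. Those of the others were chr7:148700154-148725733 (minus) for PDIA4, chr2:10923519-10952960 (minus) for PDIA6, chr22:39916569-39918691 (plus) for ATF4 and chr12:57910371-57914300 (minus) for DDIT3. In total, 114 of the 102843 clusters of FLAG-Angel1 replicate 1, 133 of the 96960 of replicate 2 and 21 of the 5717 of the control lay in the 8 spans. No cluster of any list lay on the opposite strand of a span, and none crossed the end of one.

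In eCLIP, UV light cross-links protein to RNA, the RNA fragments held by the protein are immunoprecipitated (IP) and sequenced, and a size-matched input from the same lysate serves as reference. The study made IP and input libraries for 2 replicates of FLAG-Angel1 and for 1 control, all from HEK293, a human embryonic kidney line, in its Flp-In T-REx form. The labels give every sample 24 h of tetracycline at 5 ng/mL, which turns on a FLAG-Angel1 transgene integrated in the genome, and light of 254 nm at 400 mJ/cm2. The control IP is called FLAG-only and carries the FLAG-Angel1 genotype in its labels, whereas the methods describe a control line with no FLAG fusion protein. The methods also mention a sample without UV exposure, which no label marks. HEK293 identity could not be checked against marker genes, since the lists hold clusters and not expression levels.

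Each listed cluster carries the log2 fold of IP over its own input and a −log10 P for that fold, both calculated by the authors. Clusters with a log2 fold above 0 and a P past the threshold of 0.05 are called enriched. The lists hold no read counts, so that the depth behind a single cluster is unknown. Over all clusters the median log2 fold of the control was 5.20, that of replicate 1 was 0.57 and that of replicate 2 was 1.73, so that folds of the libraries are not on a common scale. No test was made between libraries, as the control is 1 library and clusters of a gene are not replicates. Wilson 95% intervals of shares cover counting error of clusters only, and clusters of 1 gene share their transcript.

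Outside the eCLIP data, 4 of the genes share an element in their promoters. The ER stress response element, to which the factor ATF6 binds together with NF-Y, was searched as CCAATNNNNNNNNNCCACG on both strands from 250 bases before to 50 after the starts given by RefSeq (GRCh38.p14). It was found in the promoters of 4 of the 7 members with an entry, against 25 of all 27305 genes in the table (0.0916%). The 25 include these 4. As the members were picked as genes of the response in which this element acts, the contrast is a description and not a test. The members with the motif were HSPA5, HSP90B1, CANX and PDIA6. No match was found in this window for PDIA4, ATF4 and DDIT3, and PDIA3 had no entry. The sites are shown because ER stress factors are known to act through this element, with its fixed ends in capitals. The site of HSPA5 began 66 bases upstream of the start, those of HSP90B1 194 and 89 bases and that of PDIA6 86 bases upstream, and that of CANX between 9 and 189 bases upstream of 3 of its 4 starts in the table, with no match in the window of the other.
HSPA5, chr9:125241391-125241409, minus strand, GRCh38.p14: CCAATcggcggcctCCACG
HSP90B1, chr12:103930216-103930234, plus strand, GRCh38.p14: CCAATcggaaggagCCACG
HSP90B1, chr12:103930321-103930339, minus strand, GRCh38.p14: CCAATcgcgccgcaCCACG
CANX, chr5:179698778-179698796, plus strand, GRCh38.p14: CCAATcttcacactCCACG
PDIA6, chr2:10812853-10812871, minus strand, GRCh38.p14: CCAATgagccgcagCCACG
These DNA sites are a description of the genes. They lie in another genome build than the clusters and were not compared with them.

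Clusters in the 8 genes were enriched in both FLAG-Angel1 IPs more often than clusters at large. In replicate 2, 132 of the 133 clusters were enriched (99.2%, Wilson 95% interval 95.9% to 99.9%), against 40.7% of all clusters of that library. The single exception was a cluster of PDIA3 with a log2 fold of 1.14 and a −log10 P of 1.03. In replicate 1, 58 of the 114 clusters were enriched (50.9%, interval 41.8% to 59.9%), against 11.7% of all clusters. At the threshold of 0.001 on P, 116 clusters of the members passed in replicate 2 (87.2%, against 17.0% of all clusters) and 17 in replicate 1 (14.9%, against 4.22%). The share was not carried by the gene with the most clusters. Without HSP90B1, it was 99.0% in replicate 2 and 46.7% in replicate 1. It also stood above the background among clusters found by both replicates, with 99.1% of 113 in replicate 2 against 54.0% of all such clusters, and 50.5% of 99 in replicate 1 against 19.2%. Among clusters at least 20 nt wide, the shares were 100% of 100 against 42.6% and 57.9% of 76 against 11.6%, respectively.

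The folds were also higher than those of the library as a whole. The median log2 fold of the members' clusters was 2.72 in replicate 2 and 1.37 in replicate 1, which lay at the 81.3 and 78.0 percentiles of the respective libraries. By gene, the median exceeded the library median in 8 of 8 members in replicate 2 and in 7 of 8 in replicate 1, where PDIA4 was the exception with 0.56 against 0.57. In replicate 2, all 37 clusters of HSP90B1 and all 13 of PDIA4 lay above the library median, but only 7 of 12 of ATF4 did. The ranges of the members overlapped each other widely in both replicates, as the plot of log2 folds by gene shows.

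**Figure D1:**
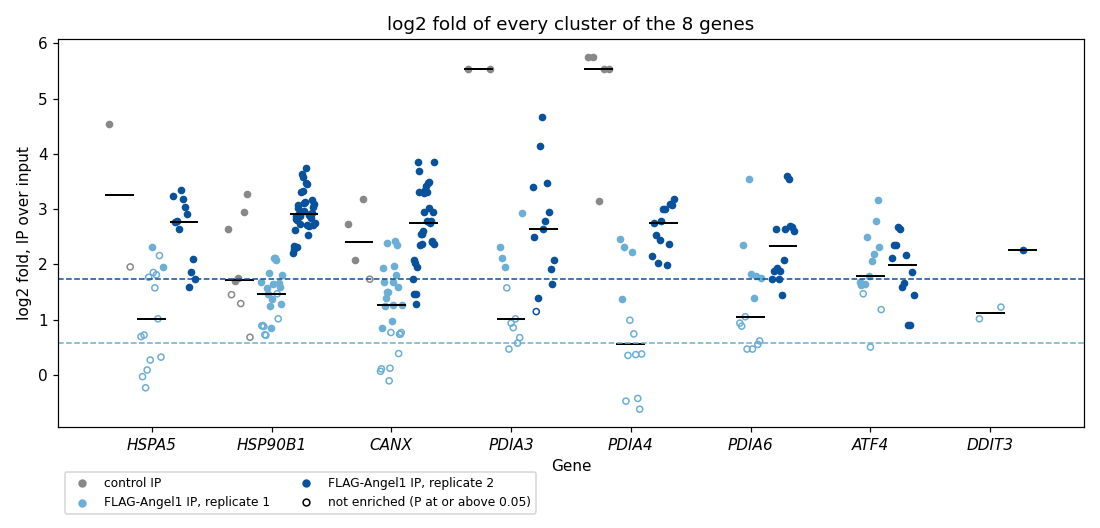
log2 fold of IP over input (y axis) for every cluster of the 8 genes (x axis) in the control IP (grey) and in the FLAG-Angel1 IPs of replicate 1 (light blue) and replicate 2 (dark blue); filled points are enriched, open points are not, black bars are medians, and dashed lines give the median of all clusters of replicate 1 (0.57) and replicate 2 (1.73). In replicate 2 the only open point is in PDIA3, whereas 56 of the 114 points of replicate 1 are open.

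The enriched share also differed within ranges of log2 fold 1 unit wide, in which the folds themselves were not matched. Among clusters with a log2 fold above 1 and up to 2, 34 of the 48 of the members were enriched in replicate 1 (70.8%, interval 56.8% to 81.8%), against 21.2% of all clusters in that range. In replicate 2, 22 of 23 were enriched in the same range (95.7%), against 25.5% of all clusters. Above a fold of 2 and up to 3 on this scale, 19 of 20 were enriched in replicate 1, against 62.9% of all, and 68 of 68 in replicate 2, against 61.6%. Above 3 and up to 4, every cluster of both libraries was enriched, of the members and of all. In this last range the median −log10 P of the members was 14.55 in replicate 2, against 3.32 for all clusters. In replicate 1 it was 2.81 on only 2 clusters, against 3.43. Above a log2 fold of 4 in replicate 2, it was 5.13 on 2 clusters, against 5.28. At a given fold a larger −log10 P goes with more reads, and transcript abundance was not measured, so its part in these shares was not tested.

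**Figure D2:**
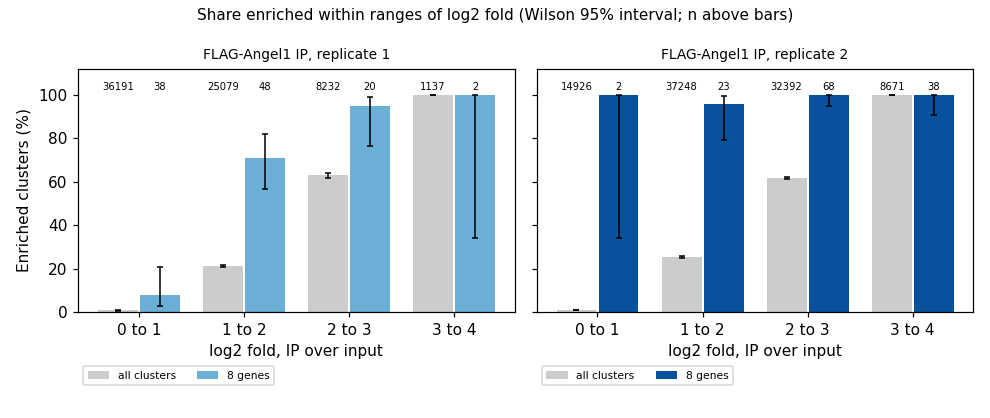
Percentage of clusters enriched (y axis) within ranges of log2 fold (x axis) for all clusters (grey) and for the clusters of the 8 genes (blue) in replicate 1 (left) and replicate 2 (right), with Wilson 95% intervals and the number of clusters above each bar. Between log2 folds of 1 and 2 the members reach 70.8% and 95.7%, against 21.2% and 25.5% of all clusters.

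Of the chaperones, HSP90B1 held the most clusters. This gene encodes GRP94, which folds integrins and Toll-like receptors in the ER lumen. It had 22 clusters in replicate 1 with log2 folds from 0.72 to 2.12 (median 1.46) and 37 in replicate 2 with log2 folds from 2.20 to 3.74 (median 2.90). The 2 ranges did not overlap. All 37 clusters of replicate 2 passed the threshold of 0.001, and 15 of the 22 of replicate 1 passed that of 0.05. The highest fold of replicate 2 was at chr12:104337550-104337563, with 3.74 and a −log10 P of 30.57, next to the cluster with the highest −log10 P of all members, 31.73, at chr12:104337516-104337549. At this location replicate 1 had 1 cluster, at a log2 fold of 0.85 with a −log10 P of 1.58.

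HSP90B1 had 5 reproducible peaks, which are clusters of both replicates past the threshold of 0.001 that overlap and are merged. The first lay near the 5′ end of the gene, at chr12:104324225-104324298, with log2 folds of 1.68 in replicate 1 and 2.20 in replicate 2, no control cluster and the highest −log10 P of the members in replicate 1 (10.59). The peak at chr12:104336394-104336569 had log2 folds of 1.58 and up to 3.63, and that at chr12:104336852-104336947 of 1.84 and up to 3.33. Each was overlapped by an enriched control cluster, with a log2 fold of 1.69 and 1.75 in the control. The peak at chr12:104340564-104340644, with 2.12 and up to 2.94, also lay over an enriched control cluster (3.28 in the control). The last, at chr12:104341433-104341554 toward the 3′ end, had 1.80 and up to 3.09 and no control cluster. The folds of replicate 2 were higher in all 5 peaks, against 1356 of all 2243 reproducible peaks. In replicate 2, HSP90B1 also had the longest run of directly abutting clusters of the members, with 5 clusters over 181 nt from 104336394 to 104336574.

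CANX, which encodes calnexin, a membrane-bound lectin that holds newly made glycoproteins for folding, had 26 clusters in replicate 1 and 31 in replicate 2. Their log2 folds ran from -0.11 to 2.42 (median 1.26) in replicate 1 and from 1.28 to 3.85 (median 2.76) in replicate 2, so that the ranges overlapped. Enriched were 17 of the 26 and all 31. Of 4 reproducible peaks, that at chr5:179132706-179132818 had log2 folds of 1.93 and up to 2.03 and lay over an enriched control cluster. The peak at chr5:179147409-179147515 had up to 2.42 and up to 3.41, over a control cluster that was not enriched. Neither the peak at chr5:179149941-179150020 (1.80 and up to 3.47) nor that at chr5:179150661-179150780 (up to 2.35 and up to 3.48) had a control cluster. The 5′ end of CANX differed between the replicates. Clusters within 200 nt of it had log2 folds of 0.06 and 0.11 in replicate 1, where they were not enriched, and of 1.46 and 1.73 in replicate 2, where both were.

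HSPA5, the ER Hsp70 that binds nascent chains and keeps the stress sensors inactive, separated the replicates most by its calls among the members with more than 2 clusters. All 12 of its clusters in replicate 2 passed the threshold of 0.001, with log2 folds from 1.60 to 3.35 (median 2.77). Of its 15 clusters in replicate 1, with log2 folds from -0.23 to 2.32 (median 1.01), 2 passed that of 0.05 and none that of 0.001. HSPA5 therefore had no reproducible peak. Both enriched clusters of replicate 1 lay over control clusters. The first was chr9:128001511-128001586, with a log2 fold of 2.32 in replicate 1, against 2.92 for the overlapping cluster of replicate 2 and 4.54 in the control. The second, chr9:128003386-128003532, had 1.96 in replicate 1 and 1.73 to 2.10 in replicate 2, with a control cluster at 1.95 that was not enriched.

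The folds of HSPA5 in replicate 2 fell into groups by position. The 4 clusters in the first 1 kb of the span had log2 folds from 1.60 to 2.10, and the 8 farther downstream from 2.65 to 3.35. In replicate 1 the 5 clusters of the first 1 kb ranged from 0.32 to 2.16 (median 1.81) and the 10 others from -0.23 to 2.32 (median 0.71), so that these overlapped and their medians had the opposite order. PDIA4 showed the reverse arrangement in replicate 2. Its 3 clusters of the first 1 kb had log2 folds from 3.07 to 3.18, above the 10 others, which ran from 1.98 to 3.003. In replicate 1 the 3 clusters there ranged from -0.62 to 0.38, and the 9 others from -0.47 to 2.47. The division at 1 kb was chosen after the values were seen, and the order of 5′ and downstream clusters was thus not shared by the replicates in either gene.

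**Figure D3:**
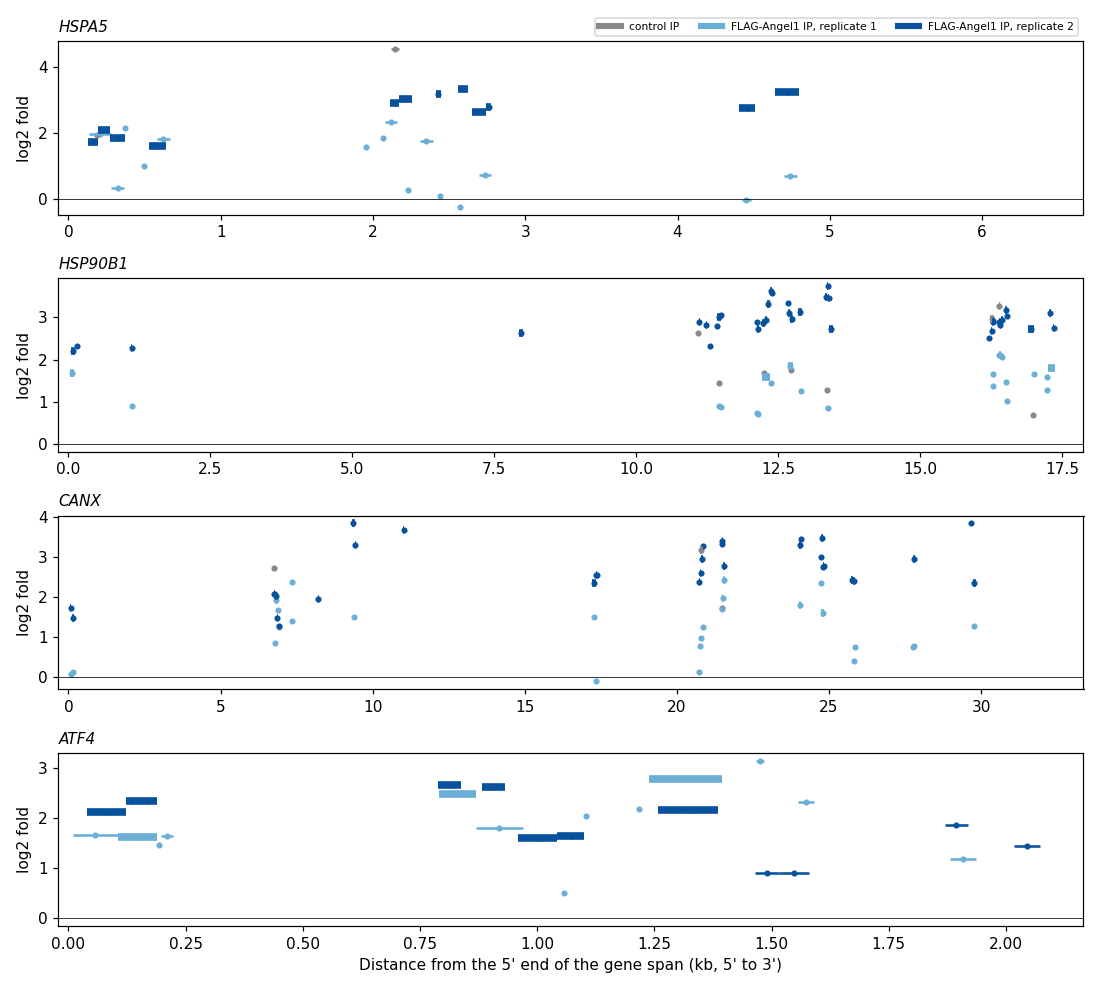
Clusters of HSPA5, HSP90B1, CANX and ATF4 by distance from the 5′ end of the gene span (x axis, kb) and log2 fold of IP over input (y axis) in the control IP (grey) and in FLAG-Angel1 replicate 1 (light blue) and replicate 2 (dark blue); bar length is cluster width, and points mark the centres of clusters and thick bars passed the threshold of 0.001. In HSPA5, the 4 clusters of replicate 2 in the first 1 kb lie between 1.60 and 2.10 and the 8 others between 2.65 and 3.35.

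The disulfide isomerases had fewer clusters than HSP90B1 and CANX. PDIA3, or ERp57, which acts on glycoproteins together with calnexin, had 11 clusters in replicate 1 with log2 folds from 0.47 to 2.94 and 13 in replicate 2 from 1.14 to 4.67. Enriched were 4 of 11 and 12 of 13. Its only reproducible peak lay near the 5′ end at chr15:44038731-44038893, with log2 folds of 1.96 and 2.49. The highest fold of all members in replicate 2, 4.67, was at chr15:44053623-44053680, where the replicate 1 cluster stood at 0.94 and was not enriched. PDIA4, or ERp72, had 12 clusters in replicate 1 from -0.62 to 2.47 and 13 in replicate 2 from 1.98 to 3.18, of which 4 and 13 were enriched. It had no reproducible peak. In replicate 1 its highest −log10 P was 2.99, at chr7:148709333-148709423 with a log2 fold of 2.31, and the overlapping cluster of replicate 2 had 2.52 and a −log10 P of 11.35.

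PDIA6, or P5, which is known to bind BiP, had 13 clusters in replicate 1 with log2 folds from 0.47 to 3.55 and 14 in replicate 2 from 1.44 to 3.60. Enriched were 6 of 13 and 14 of 14, and each cluster of either replicate overlapped one of the other. It had 2 reproducible peaks and no control cluster. The peak at the 5′ end, chr2:10952804-10952927, had log2 folds of 1.76 in replicate 1 and up to 2.67 in replicate 2. The other, chr2:10929923-10930015, had 3.55 and 1.87. It was 1 of 2 among the 15 peaks of the members with the higher fold in replicate 1, against 887 of all 2243 reproducible peaks. The fold of a peak is the highest of its merged clusters in that replicate, which can favor the replicate with more of them.

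ATF4 had the largest share of its span covered by clusters among the members and the smallest median difference between the replicates. The ATF4 mRNA carries upstream open reading frames that allow its translation when initiation is limited by stress. The clusters covered 31.6% of its span of 2123 nt in replicate 1 and 34.5% in replicate 2, against at most 15.3% in any other member. That span is the shortest of the members. In nt, the clusters of ATF4 covered 671 in replicate 1 and 732 in replicate 2. By this measure it lay below CANX, HSP90B1, HSPA5 and PDIA6 and above PDIA3, PDIA4 and DDIT3 in both replicates. The 13 clusters of replicate 1 had log2 folds from 0.50 to 3.16 (median 1.80) and the 12 of replicate 2 from 0.91 to 2.67 (median 1.99), of which 10 and 12 were enriched. No control cluster was listed in it. The reproducible peak at the 5′ end, chr22:39916609-39916757, had log2 folds of 1.62 in replicate 1 and up to 2.35 in replicate 2. The peak at chr22:39917358-39917437 had 2.49 and 2.67, the highest lower fold of all 15 peaks, which ranked 474 among the 2243 reproducible peaks of the series. The peak at chr22:39917808-39917962 had 2.78 and 2.16, with −log10 P of 6.96 and 10.98.

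DDIT3, which encodes CHOP, a factor induced late in the response and little expressed in unstressed cells, had few clusters. In replicate 1 there were 2, with log2 folds of 1.01 and 1.23, and neither was enriched. In replicate 2 there was 1, with 2.26 and a −log10 P of 2.00, at chr12:57911120-57911201, which was enriched and overlapped the second of replicate 1. No control cluster was listed. Enrichment of DDIT3 was thus called in 1 of the 2 replicates, on a single cluster.

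**Figure D4:**
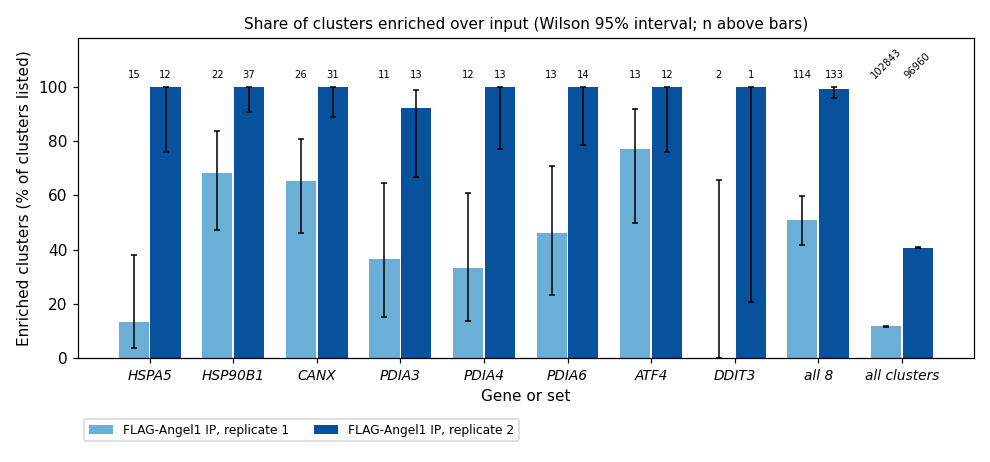
Percentage of listed clusters that were enriched (y axis) for each gene, for the 8 genes together and for all clusters (x axis) in FLAG-Angel1 replicate 1 (light blue) and replicate 2 (dark blue), with Wilson 95% intervals and the number of clusters above each bar. All members but PDIA3 reach 100% in replicate 2, while replicate 1 ranges from 0 in DDIT3 and 13.3% in HSPA5 to 76.9% in ATF4.

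Clusters at the 5′ end recurred across the members. In 7 of the 8 genes, both replicates had a cluster within 200 nt of the 5′ end of the span, with the nearest at 10 to 198 nt in replicate 1 and at 40 to 167 nt in replicate 2. DDIT3 was the exception, with its nearest cluster 3080 nt away in replicate 1. All 14 clusters within this distance were enriched in replicate 2 and 9 of 13 in replicate 1. Anywhere in the spans, 132 of 133 clusters of the members were enriched in replicate 2 and 58 of 114 in replicate 1. The share in replicate 2 was thus no feature of the 5′ end, and a difference in replicate 1 was not tested. Reproducible peaks began there in HSP90B1, PDIA3, PDIA6 and ATF4, 4 of the 15 in all. In the control 1 gene, HSPA5, had a cluster so close to its 5′ end, which was not enriched. The remaining 11 reproducible peaks began farther downstream. Exons, introns and untranslated regions were not assigned to clusters, and the comparable share over all genes was not calculated, because no annotation of GRCh37 was used here.

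Between the replicates, the clusters of the members largely coincided in place. Of the 114 clusters of replicate 1, 99 overlapped a cluster of replicate 2 (86.8%, interval 79.4% to 91.9%), against 52.6% of all clusters. Of the 133 of replicate 2, 113 overlapped one of replicate 1 (85.0%, interval 77.9% to 90.0%), against 54.6%. For pairs, each of the 99 clusters of replicate 1 was matched to the replicate 2 cluster of largest overlap. Some replicate 2 clusters therefore stand in more than 1 pair and are counted more than once in the values over pairs. Among the 99 pairs, 50 were enriched in both replicates (50.5%, against 16.9% of all pairs) and 49 in replicate 2 alone. None was enriched in replicate 1 alone or in neither. Of all 54100 pairs, 21091 were enriched in replicate 2 alone, 1241 in replicate 1 alone and 22646 in neither. As 132 of the 133 clusters of the members in replicate 2 were enriched, hardly any pair of theirs could fall outside the first groups. The absence of such pairs is therefore no measure of agreement between the replicates. The correlation of folds had a different sign in CANX than in the other members for which it was calculated. These values rest on at most 24 pairs each, and the difference was not tested. DDIT3 had only 1 pair and no correlation. Across the 99 pairs, which share transcripts and libraries, the Pearson correlation was -0.11, against 0.224 over all 54100 pairs. Within genes it was 0.385 in CANX over 24 pairs, but -0.561 in HSPA5 over 11 and -0.559 in PDIA4 over 10. In HSP90B1, PDIA3, PDIA6 and ATF4 it lay between -0.198 and -0.040.

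Replicate 2 had the higher log2 fold in 88 of the 99 pairs (88.9%), against 81.3% of all pairs. The median difference was 1.35 (SD 1.14 across pairs), against 1.10 over all pairs (SD 1.25). By gene, HSP90B1 was higher in replicate 2 in 20 of 20 pairs with a median difference of 1.45, and CANX in 23 of 24 with 1.57. The median difference was largest in PDIA4, at 2.04 over 10 pairs, and HSPA5 followed at 1.93 over 11 pairs. ATF4 had the smallest, at 0.45 over 9 pairs with an SD of 1.15, of which 6 were higher in replicate 2. In between lay HSP90B1, PDIA3 with 1.28, DDIT3 with 1.03 on its only pair, and PDIA6 with 1.00. The SD of the pairs within a gene ranged from 0.60 to 1.41, and genes next to each other in this order did not differ beyond it.

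**Figure D5:**
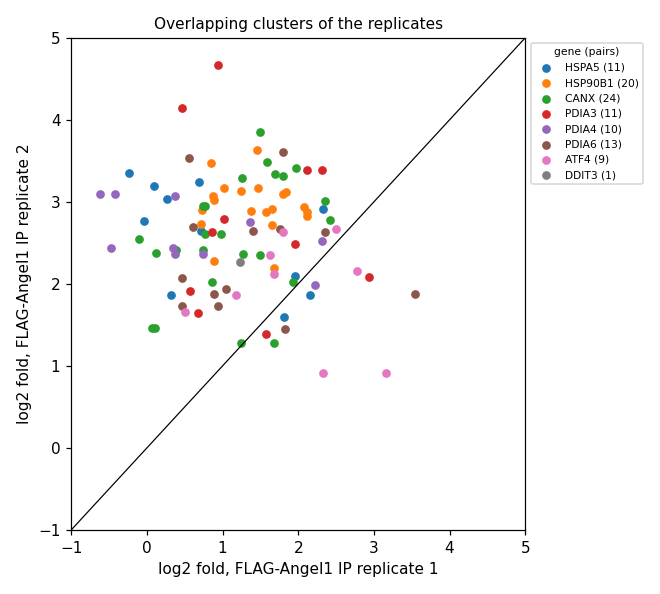
log2 fold in FLAG-Angel1 replicate 1 (x axis) against replicate 2 (y axis) for the 99 pairs of overlapping clusters, colored by gene, with the number of pairs in parentheses and the line of equal fold. Of the 99 points, 88 lie above the line, and ATF4 holds 3 of the 11 below it.

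The control IP also had clusters in 5 of the 8 genes. It listed 8 in HSP90B1, 5 in PDIA4, 4 in CANX, and 2 each in HSPA5 and PDIA3, but 0 in PDIA6, ATF4 and DDIT3. Of these 21, 16 were enriched over the control's own input (76.2%, interval 54.9% to 89.4%), against 91.8% of all control clusters. Their median log2 fold was 2.95, against 5.20 over all control clusters. Of the 21, 15 overlapped a cluster of replicate 2 (71.4%, against 40.6% of all control clusters) and 14 one of replicate 1 (66.7%, against 40.9%). All control clusters of HSPA5, HSP90B1 and CANX overlapped a cluster of replicate 2, and those of PDIA3 did not overlap either replicate. The 2 control clusters of PDIA3 lay at chr15:44043577-44043594 with log2 folds of 5.54 each. In PDIA4 the pair with the highest control fold of the members, 5.76, lay at chr7:148711563-148711650, and neither replicate had a cluster there.

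Overlap with the control was more frequent in the members than in the libraries at large. Of their clusters, 20 in replicate 1 (17.5%, interval 11.7% to 25.6%) and 28 in replicate 2 (21.1%, interval 14.99% to 28.7%) overlapped a control cluster, against 2.58% and 2.66% of all clusters. HSP90B1 accounted for 9 of the 20 and 15 of the 28. Of the 15 reproducible peaks, 4 lay over an enriched control cluster (26.7%, interval 10.9% to 52.0%), against 17.2% of all 2243, an interval that includes the value of the series. Of the 15, 10 had no control cluster of any kind, against 1694 of all 2243. Since the control list is short, a location without a control cluster is not shown to be free of background. Retention of these RNAs without a FLAG fusion protein cannot be told apart from binding of FLAG-Angel1 where control clusters coincide.

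In total, 15 reproducible peaks lay in 5 of the 8 genes, with 5 in HSP90B1, 4 in CANX, 3 in ATF4, 2 in PDIA6 and 1 in PDIA3. HSPA5, PDIA4 and DDIT3 had none. The lower log2 fold of the replicates had a median of 1.87 in these peaks, against 2.07 over all 2243, and ranged from 1.58 to 2.49. The width of the peaks ran from 74 to 176 nt, with a median of 113 nt, against 123 nt over all. At the threshold of 0.05 in both replicates, 37 of the 6843 peaks of the series lay in the members, which included 2 in HSPA5 and 3 in PDIA4, and 0 in DDIT3.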

How the data were processed

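The 3 cluster lists of the IPs were used (FLAG-Angel1 replicates 1 and 2, and the control); input libraries entered only through the deposited values. The authors mapped reads to GRCh37 (hg19), called clusters separately per library (Yeo laboratory eCLIP pipeline) and normalized each to its input; the submitters' processing notes name cutadapt, STAR, SAMtools and UMI-tools, with versions not given in the sources used here. The deposited log2 values are log2 folds of IP over input, and the deposited −log10 values are those of their P, limited to 400. Starts were converted to count from 1. Clusters were assigned to spans, overlapped (1 nt, same strand), paired by largest overlap and merged in Python 3.11.15 (numpy 2.4.6, pandas 2.3.3, scipy 1.17.1, matplotlib 3.10.9), and these steps were tested on simulated lists. Since a fold and its P come from the same reads, neither is independent of the other. UMI-tools is named in the submitters' processing notes, but the removal of PCR duplicates is not described further in the sources used here.

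The members, the lists and the alternatives were chosen with earlier results of these data known. All 8 genes and every reproducible peak were named. A wider list of stress response genes was not analysed here, because no spans in GRCh37 were given, and protein features were not analysed here. Promoter sequences are from RefSeq (GRCh38.p14) and 7 of the 8 members matched by symbol.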

Additional observations from a re-analysis of the deposited data

How the results depend on the processing

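Alternatives covered the thresholds, strand, overlap, joining of abutting clusters and each replicate alone. Of 47 values, 33 stayed within 1.5 times (counts), the Wilson interval (shares) or 1 SD (differences) of the reported one. The 33 include the alternatives that ignored the strand or required clusters wholly inside the span. These could not change a value, as no cluster lay on the opposite strand or crossed a span end, and show nothing about stability. Those for the enriched share were chosen after the data were examined. Enriched clusters of the 8 genes fell at the threshold of 0.001 from 58 to 17 in replicate 1 and from 16 to 9 for the control IP. Requiring a log2 fold of 3 or more left 2 in replicate 1, 40 in replicate 2 and 10 for the control IP, as fewer clusters can pass. Joining abutting clusters took those listed in replicate 2 from 133 to 88. The 15 reproducible peaks became 37 at the threshold of 0.05 and 0 when a log2 fold of 3 or more was required. With each replicate left out in turn, the clusters past 0.001 in the other were counted after joining abutting ones. Their number ranged from 15 to 73, the latter without replicate 1. Counted singly, the clusters past 0.001 were 17 in replicate 1 and 116 in replicate 2. The enriched share, 50.9% in replicate 1 and 99.2% in replicate 2, was 14.9% and 87.2% at the threshold of 0.001 and 41.3% and 100% as the median of the 8 genes, and 100% in replicate 2 for clusters at least 20 nt wide. The median difference between the replicates, 1.35, was 0.87 over the pairs enriched in both. No paired analysis was possible because the control is 1 library and shares fewer than 2 replicate numbers with FLAG-Angel1; the pairs of overlapping clusters compare the replicates, not the groups. Depth is unknown without read counts, and the short control list limits what it can show.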
